A study of Homo sapiens with 6 samples.

Results

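Mitochondrial carriers and the machinery that imports mitochondrial proteins were followed in A549, a widely used human line of lung adenocarcinoma cells. The set was defined by gene symbol, and it was chosen with earlier results of these data known. It held 73 protein-coding genes of the 58735 genes in the files, with 48 carriers (SLC25A family) and 25 import genes (TOMM and TIMM families). RNA sequencing compared 3 libraries of untreated wild-type cells with 3 libraries of cells that had received 2 µM B35, which the series names as an inhibitor of the histone demethylase LSD1, for 72 h. All 6 libraries came from this single line, no solvent is named for the untreated cultures, and the labels do not state which cultures the replicates of a group came from. The p-values therefore measure only the spread between these libraries, which may be technical. The question was how B35 alters transcript levels, here of carriers set beside import genes.

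The inner mitochondrial membrane is tight, and the SLC25 carriers are the proteins that pass nucleotides, phosphate, amino acids, organic acids and cofactors across it. Almost all mitochondrial proteins, the carriers included, are encoded in the nucleus and made in the cytosol. They enter through the TOM complex of the outer membrane. Proteins with a presequence then pass through the TIM23 complex, whose motor pulls them into the matrix, while carriers are guided by small TIM chaperones to the TIM22 complex, which inserts them into the inner membrane.

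Library totals ran from 17141478 to 18530670 counts. Each library detected between 21077 and 22365 genes. The labelled cell type was checked against markers: KRT8 and KRT18, keratins of simple epithelia, were abundant. KRT8, whose exons overlap those of KRT18, was at 1663 ± 34.9 CPM (counts scaled to library size, mean ± SD, n = 3) in control and 1117 ± 158 CPM in B35 cells. CDH1 was low and KRT19 near 0. The markers moved in opposite directions: KRT8 fell by 1.49-fold (edgeR adjusted p = 0.00611), while EPCAM, an epithelial adhesion molecule, rose from 3.36 ± 0.255 to 7.21 ± 0.197 CPM, or 2.14-fold (edgeR adjusted p = 0.00248). The summed level of the 5 epithelial markers, mostly KRT8 and KRT18, was 2160 to 2247 CPM in control and 1396 to 1739 CPM in B35 libraries, and its part in the results was not tested. The summed level of 4 alveolar type 2 markers was 0.167 to 0.722 CPM and that of 4 leukocyte markers 1.21 to 1.55 CPM. The summed level of 3 endothelial markers was 5.85 to 9.44 CPM, and that of 4 fibroblast markers was 27.1 to 27.2 CPM in control and 19.8 to 22.7 CPM in B35 libraries. SFTPA1 and CD3E, defining markers of alveolar type 2 cells and T cells, were at 0. KDM1A, which encodes LSD1, had a log2 fold change of −0.11 ± 0.084 (SE, edgeR adjusted p = 0.432). B35 replicate 1 stood apart from the other B35 libraries, so the members whose call changes without it are given with that value.

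More members fell than rose. Of the 63 members with enough counts to test, 13 fell and 3 rose with B35, by at most 1.77-fold in either direction (quasi-likelihood test in edgeR, p under 0.05 after Benjamini-Hochberg adjustment over 14773 genes). Among carriers, 8 of 40 tested fell and 3 rose. Among import genes, 5 of 23 tested fell and none rose, with 1, TOMM7, higher at an unadjusted p under 0.05. None rose by DESeq2, while TOMM7 passed as risen under several other settings, named below. Over all genes tested, 15.4% passed in either direction. Of all genes, 6.59% fell and 8.82% rose, beside 20% and 7.5% of the carriers and 21.7% and 0% of the import genes. The median log2 fold change was −0.12 for carriers, −0.25 for import genes and 0.0067 for all genes tested. Fold changes were below 0 in 26 of 40 carriers, in 21 of 23 import genes and in 7244 of 14773 genes. In such bulk samples, fewer cells of a kind and less RNA per cell cannot be told apart.

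**Figure D1:**
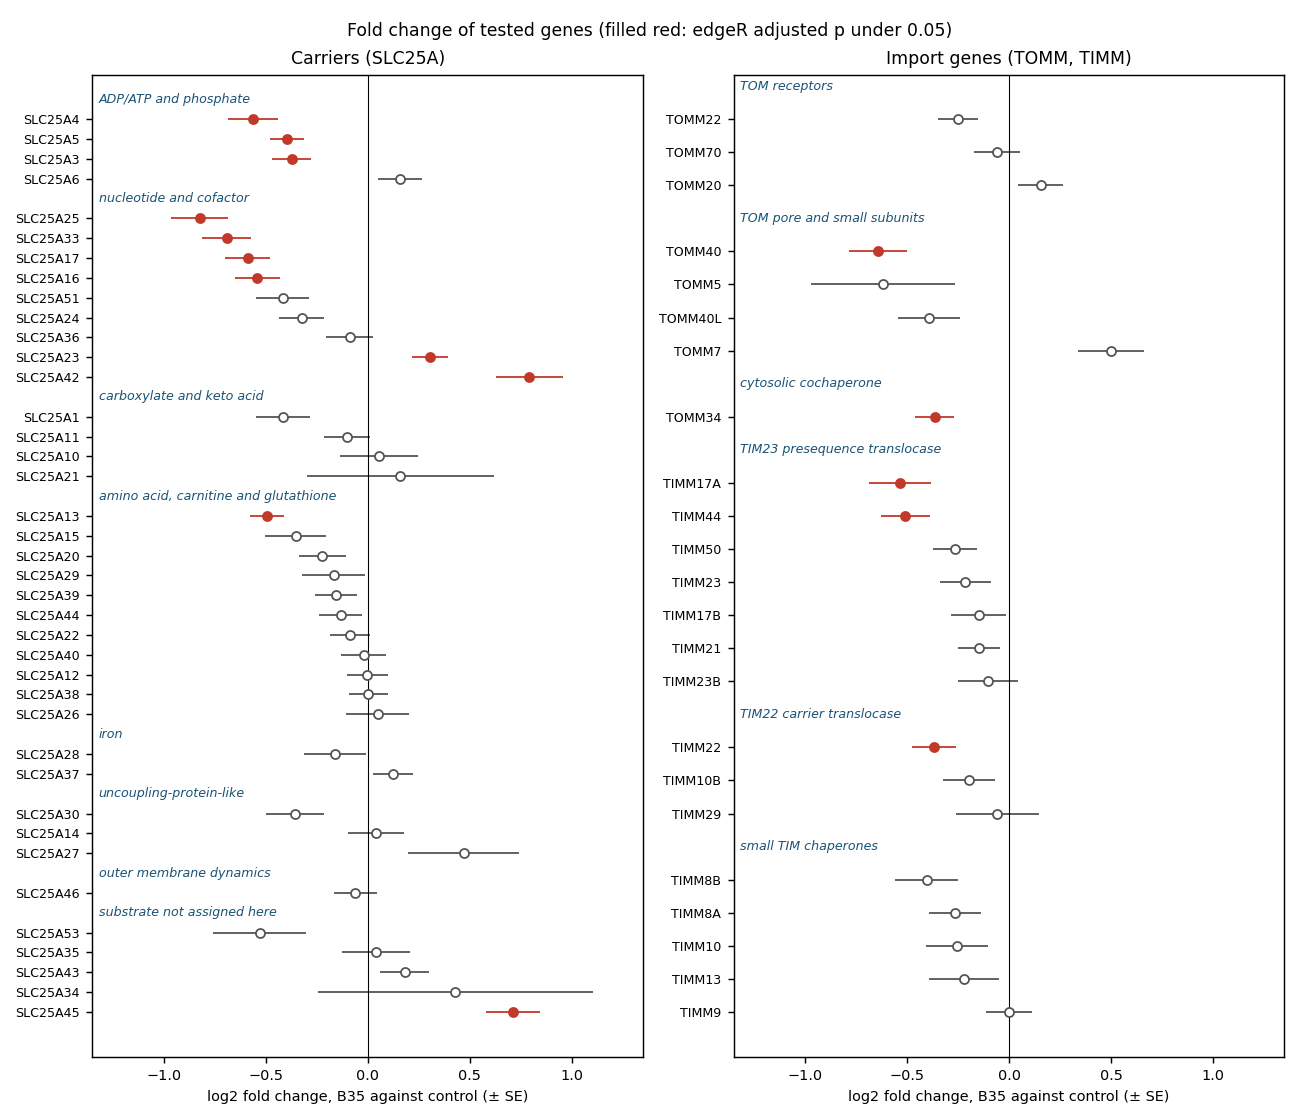
Log2 fold change of the tested carriers, apart from 1 not reported here (left), and import genes (right), B35 against control, by role, with the SE as bars and filled red points for an edgeR adjusted p under 0.05. The 8 carriers and 5 import genes that fell lie left of 0, and the 3 genes that rose are all carriers.

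All B35 libraries lay below all control libraries for 15 carriers and 10 import genes, where 17.5% of all genes tested did so. They lay above for 3 carriers and no import gene, against 18.8% of all genes tested. The size of the shift was not even across the B35 libraries. The median over import genes of log2(CPM + 0.5) lay 0.47 below the control mean in B35 replicate 1, with values of −0.076 in replicate 2 and −0.26 in replicate 3. For carriers the same values were −0.27, −0.14 and −0.077. Import genes were thus the lower class in B35 replicates 1 and 3, and carriers were the lower class in B35 replicate 2. The control libraries lay between −0.021 and 0.052 in both classes, so every B35 library was below every control library in each class.

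**Figure D2:**
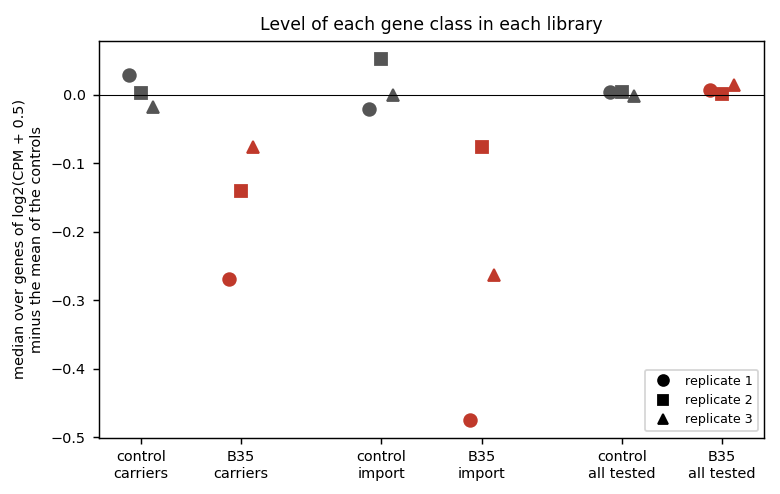
Median over the genes of each class of log2(CPM + 0.5) minus the mean of the control libraries, 1 point per library, for 40 carriers, 23 import genes and 14773 genes tested. B35 replicate 1 is the lowest library in both classes, and the 6 libraries lie together for all genes tested.

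The median of the carriers exceeded that of the import genes by 0.13 on the log2 scale, beside an SD between replicates of 0.11 for that difference, and no test was made of it. Without B35 replicate 1 the medians were −0.091 for carriers and −0.17 for import genes. In that fit 11 carriers and 6 import genes fell and 4 carriers and 1 import gene rose, where 10.1% of all genes fell and 12.1% rose. Fewer genes passed when a control library was left out. Import genes that fell then numbered 0, 1 and 1 without control replicates 1, 2 and 3, where 2.76%, 3.3% and 1.94% of all genes fell. They numbered 5 without B35 replicate 2 and 3 without B35 replicate 3, where 4.76% and 4.21% of all genes fell. Carriers that fell numbered 7, 7 and 5 without the controls in turn.

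Joint regulation was not tested for the members that fell, whose shared direction follows from how they were chosen. The sequences just before their annotated starts are shown as a description. They are RefSeq sequences of GRCh38.p14, matched by symbol for 35 tested carriers and 21 tested import genes, and printed for the members that fell with a searched motif before the start, in a window that lies wholly before the GENCODE gene. Capitals mark the motifs: the core bound by the nuclear respiratory factor NRF1 (TGCGCA), the core of ETS factors such as GABPA (CCGGAA) and the E-box (CACGTG) of MYC-type factors, each sought on both strands.
SLC25A3, chr12:98593436-98593535, plus strand: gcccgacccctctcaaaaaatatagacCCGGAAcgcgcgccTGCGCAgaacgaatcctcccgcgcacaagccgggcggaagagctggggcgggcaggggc
SLC25A4, chr4:185143065-185143164, plus strand: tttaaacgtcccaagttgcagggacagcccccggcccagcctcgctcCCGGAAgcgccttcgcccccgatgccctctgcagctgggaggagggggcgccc
SLC25A33, chr1:9539365-9539464, plus strand: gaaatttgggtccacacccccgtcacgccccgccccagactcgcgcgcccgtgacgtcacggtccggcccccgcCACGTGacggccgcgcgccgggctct
SLC25A13, chr7:96322200-96322299, minus strand: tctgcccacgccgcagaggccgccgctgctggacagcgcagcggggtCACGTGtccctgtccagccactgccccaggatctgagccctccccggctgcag
TIMM22, chr17:996949-997048, plus strand: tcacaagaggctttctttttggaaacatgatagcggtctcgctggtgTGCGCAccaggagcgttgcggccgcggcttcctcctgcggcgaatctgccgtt

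The E-box begins 26 bases before the start of SLC25A33 and 154 bases before that of SLC25A13. SLC25A3 holds an ETS core 223 bases and an NRF1 core 209 bases before its start. These distances count from the RefSeq start, which differs from the GENCODE gene boundary given with the values of each gene. The RefSeq starts are at 9539465 for SLC25A33, 96322098 for SLC25A13 and 98593686 for SLC25A3, on the chromosomes given with the sequences. In windows of 300 bases around the start, the ETS core was found in 11 of 21 import genes (52.4%), 11 of 35 carriers (31.4%) and 29.5% of 10257 promoters of tested genes. The NRF1 core was found in 4 import genes (19.0%), 3 carriers (8.57%) and 13.5% of those promoters. The E-box was found in 3 import genes (14.3%), 6 carriers (17.1%) and 10.2% of those promoters. Of the 12 members that fell and have a promoter in the table, 4 hold the ETS core, 3 the NRF1 core and 2 the E-box, and the 3 that rose hold none of these letters in this window. A match is a description of sequence and not a bound site.

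Of the 4 tested carriers that exchange ADP and ATP or bring in phosphate, 3 fell (75%), beside 6.59% of all genes tested. Per gene length, SLC25A5 and SLC25A6 were the highest of all members in control cells, at 365 ± 4.80 and 281 ± 3.81 FPKM (reads scaled to gene length and library depth; SD, n = 3). SLC25A3 followed at 82.2 ± 2.78 FPKM, beside TIMM23 at 88.3 ± 4.86, TOMM20 at 85.3 ± 3.82 and SLC25A1 at 84.5 ± 3.20 FPKM. These values do not differ beyond their spread, and SLC25A4 was at 18.9 ± 0.689 FPKM. This order depends on the length given to each gene. Annotated exons cover 8896 bases in SLC25A3, 1500 in SLC25A5 and 2164 in SLC25A6. In CPM, which is not scaled to length, SLC25A3 was the highest member in control cells, at a mean of 735 beside 610 for SLC25A6. The part of exon length in the order was not tested. SLC25A5, the ADP/ATP carrier of growing cells (chromosome X, 119468400 to 119471319, hg38), was measured at 557.9, 544.3 and 545.5 CPM in control libraries 1 to 3 and at 409.4, 435.2 and 407.6 CPM in B35 libraries 1 to 3. The groups did not overlap, and the gene was 1.32-fold lower (log2 −0.40 ± 0.081, SE, edgeR adjusted p = 0.00935). SLC25A4, the ADP/ATP carrier of heart and muscle (chromosome 4, 185143241 to 185150382), was at 89.0, 95.7 and 91.4 CPM in controls and at 50.4, 69.6 and 67.1 CPM with B35. It was 1.48-fold lower (log2 −0.56 ± 0.12, edgeR adjusted p = 0.0126) and lowest in B35 replicate 1, without which its log2 fold change was −0.43. SLC25A3 brings in the phosphate that ATP synthase needs (chromosome 12, 98593591 to 98606379). It was at 758.5, 709.7 and 735.9 CPM in controls and at 519.1, 633.1 and 550.1 CPM with B35, or 1.29-fold lower (log2 −0.37 ± 0.096, edgeR adjusted p = 0.0252).

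SLC25A6, a further ADP/ATP carrier, did not follow them. It was at 619.3, 609.6 and 600.5 CPM in controls and at 569.9, 747.0 and 721.3 CPM with B35, so that B35 replicate 1 lay below the controls and the others above (log2 0.16 ± 0.11, edgeR adjusted p = 0.361). Without B35 replicate 1 it passed the test at a log2 fold change of 0.27 (edgeR adjusted p = 0.0204). SLC25A31, the ADP/ATP carrier of germ cells, had no count in any library, which allows up to 0.162 to 0.175 CPM per library for 3 counts (counting error only). The calls of SLC25A4 and SLC25A5 were lost without control replicate 3 (edgeR adjusted p = 0.0553 and 0.0623). That of SLC25A3 was lost without control replicates 1, 2 or 3 or B35 replicate 3 (edgeR adjusted p between 0.0618 and 0.111). SLC25A5 shares 15.1% of its exon positions with SLC25A5-AS1, and counting is not stated to use strand. Its many pseudogenes took few counts, the highest being SLC25A5P1 at a mean of 0.285 CPM. Reads lost by matching more than 1 place were not measured. Among 57 pseudogenes of both classes, 2 had a mean over 1 CPM: SLC25A24P1 at 5.08 and TOMM20P4 at 2.31 CPM.

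The shares of the ADP/ATP carrier transcripts did not overlap between groups. As shares of the summed FPKM of SLC25A4, SLC25A5 and SLC25A6, SLC25A5 held 55.0%, 54.6% and 55.1% in the controls and 49.9%, 44.7% and 43.9% with B35. SLC25A6 held 42.3%, 42.4% and 42.0% in the controls and 48.2%, 53.1% and 53.9% with B35. SLC25A4 held 2.85% ± 0.130 in controls and 2.12% ± 0.187 with B35 (SD, n = 3). Each of the 3 shares had an exact two-sided permutation p = 0.1, the smallest that 3 against 3 libraries can give (0.1125 adjusted over 9 ratios). In FPKM, SLC25A6 was thus the lower of the pair in each control library and, except in B35 replicate 1, the higher with B35. In CPM, which is not scaled to gene length, SLC25A6 was higher than SLC25A5 in each library of both groups. The summed FPKM of the 3 genes was 664 ± 7.61 in controls and 596 ± 53.8 with B35, with no overlap.

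**Figure D3:**
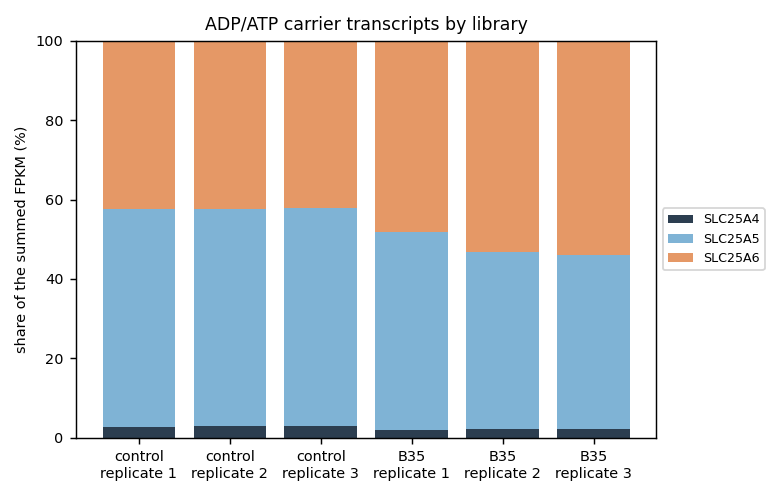
Share of each gene in the summed FPKM of SLC25A4, SLC25A5 and SLC25A6, in percent, 1 bar per library. The SLC25A5 part is 54.6% to 55.1% in the control libraries and 43.9% to 49.9% in the B35 libraries.

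Among carriers of nucleotides and cofactors, 4 of 10 tested fell (40%) and 2 rose (20%), beside 6.59% and 8.82% of all genes tested. SLC25A25, an ATP-Mg/phosphate carrier regulated by calcium (chromosome 9, 128068201 to 128109245), had the largest fall of all members. It was at 34.3, 37.0 and 38.2 CPM in controls and at 16.3, 22.3 and 23.4 CPM with B35, which is 1.77-fold lower (log2 −0.82 ± 0.14, edgeR adjusted p = 0.00391). Its exons overlap those of SLC25A25-AS1 and NAIF1, over 16.2% of their length with all partners counted. SLC25A33, a carrier of pyrimidine nucleotides that supplies mitochondrial DNA and RNA synthesis (chromosome 1, 9539482 to 9585179), was at 27.8, 26.9 and 22.6 CPM in controls and at 15.03, 16.7 and 16.1 CPM with B35. It was 1.62-fold lower (log2 −0.69 ± 0.12, edgeR adjusted p = 0.00461).

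SLC25A17, which is a cofactor and nucleotide carrier of peroxisomes rather than mitochondria (chromosome 22, 40769630 to 40819399), was at 36.6, 35.9 and 37.3 CPM in controls and at 26.4, 24.9 and 21.7 CPM with B35. It was 1.505-fold lower (edgeR adjusted p = 0.00553). SLC25A16, whose substrate is less settled, was at 52.0, 51.7 and 49.4 CPM in controls and at 39.8, 31.2 and 34.1 CPM with B35, or 1.46-fold lower (edgeR adjusted p = 0.00879). These 4 calls held in each fit with 1 library left out.

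Of the 3 carriers that rose, SLC25A42 and SLC25A23 belong to this group. SLC25A42, which carries coenzyme A (chromosome 19, 19063999 to 19112888), rose from 4.68, 4.04 and 5.06 CPM to 8.03, 7.83 and 8.01 CPM. The rise was 1.73-fold (log2 0.79 ± 0.16, edgeR adjusted p = 0.00933) and the B35 libraries lay close together. SLC25A45, for which no substrate is named here (chromosome 11, 65375192 to 65383701), rose from 17.6, 18.7 and 17.7 CPM to 25.4, 28.1 and 34.7 CPM, or 1.64-fold (log2 0.71 ± 0.13, edgeR adjusted p = 0.00578). Both calls held in each fit with 1 library left out. SLC25A23, a further ATP-Mg/phosphate carrier (chromosome 19, 6436079 to 6465203), rose from 67.1, 66.1 and 66.0 CPM to 81.1, 85.9 and 79.3 CPM, or 1.24-fold. Its call (edgeR adjusted p = 0.0378) was kept with 1 library left out only without B35 replicate 1. It was lost without any control and without B35 replicates 2 or 3 (0.0537 to 0.174), without the count filter (0.0899) and with DESeq2 (adjusted p = 0.0708).

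Relatives of these genes missed the threshold with all 6 libraries and the settings used throughout. SLC25A24, another ATP-Mg/phosphate carrier, had 166 ± 14.3 CPM in controls and 133 ± 14.6 CPM with B35 without overlap (edgeR adjusted p = 0.0660). It passed without B35 replicate 1 (log2 −0.39, edgeR adjusted p = 0.0153), with GC and length trends removed (0.0214) and with no filter beyond 1 count (0.0301). The FPKM ratio of SLC25A23 to SLC25A24 was 0.520, 0.608 and 0.539 in controls and 0.776, 0.868 and 0.942 with B35 (exact permutation p = 0.1, adjusted 0.1125). SLC25A36, the other pyrimidine nucleotide carrier, had a log2 fold change of −0.088 ± 0.12. The FPKM ratio of SLC25A33 to SLC25A36 was 0.729 ± 0.0411 in controls and 0.490 ± 0.0975 with B35 (SD, n = 3; exact permutation p = 0.1, adjusted 0.1125). SLC25A51, the NAD carrier, was 1.34-fold lower at an edgeR adjusted p of 0.0514. It passed with RLE scaling, with no filter beyond 1 count, without B35 replicate 1 (edgeR adjusted p = 0.0471) or replicate 3 (0.0424) and with GC and length trends removed (0.0212).

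**Figure D4:**
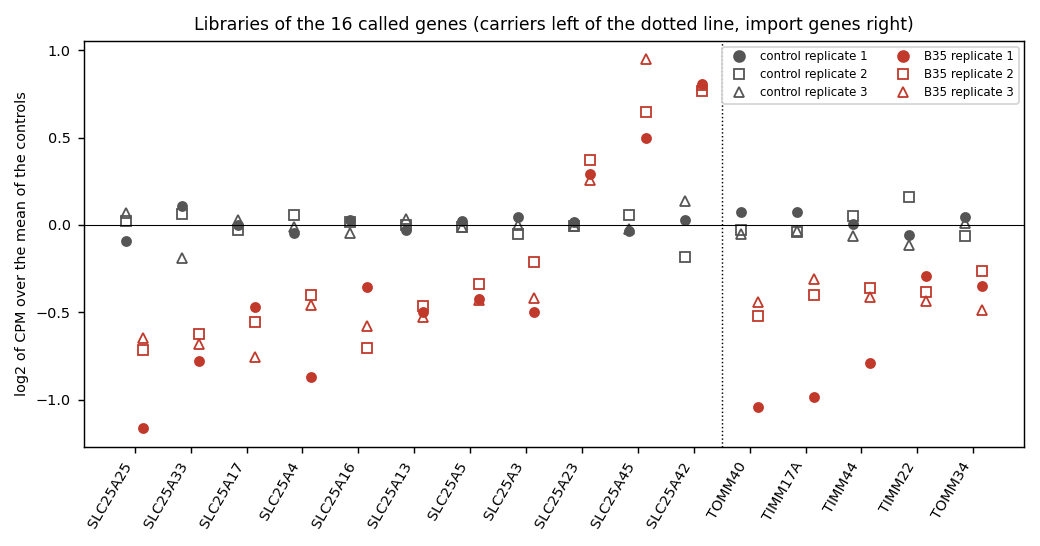
Log2 of the CPM over the mean of the controls for the 16 genes that fell or rose, 1 point per library, carriers left of the dotted line and import genes right. No B35 point overlaps the control points of its gene, and B35 replicate 1 is the lowest library of TOMM40, TIMM17A, TIMM44, SLC25A25, SLC25A4, SLC25A3 and SLC25A33.

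Of 11 tested carriers of amino acids, carnitine and glutathione, 1 fell (9.09%), beside 6.59% of all genes tested. SLC25A13, an aspartate/glutamate carrier of the malate-aspartate shuttle (chromosome 7, 96120220 to 96322147), was at 124.3, 126.9 and 129.8 CPM in controls and at 90.0, 92.1 and 88.3 CPM with B35. The fall was 1.41-fold (log2 −0.49 ± 0.084, edgeR adjusted p = 0.00392), the libraries of each group lay close together, and the call held in each fit with 1 library left out. SLC25A12, the carrier of the same exchange found in brain and muscle, was at 25.4 ± 0.417 CPM in controls and 25.4 ± 0.722 CPM with B35 (edgeR adjusted p = 0.991). The FPKM ratio of SLC25A12 to SLC25A13 was 0.145, 0.146 and 0.140 in controls and 0.208, 0.198 and 0.200 with B35 (exact permutation p = 0.1, adjusted 0.1125). SLC25A15, the ornithine carrier of the urea cycle, and SLC25A20, the carnitine carrier of fatty acid oxidation, were lower in every B35 library than in any control but missed the threshold (edgeR adjusted p = 0.139 and 0.211). The glutathione carriers SLC25A39 and SLC25A40 had log2 fold changes of −0.16 ± 0.10 and −0.021 ± 0.11. SLC25A39 passed with GC and length trends removed (edgeR adjusted p = 0.0425). The other tested members of the group, SLC25A22, SLC25A26, SLC25A29, SLC25A38 and SLC25A44, lay between −0.17 and 0.048.

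No carrier of organic acids or iron passed. SLC25A1, which exports citrate for lipid synthesis, was at 179.4, 184.2 and 170.0 CPM in controls and at 105.2, 155.2 and 139.7 CPM with B35. The groups did not overlap and the log2 fold change was −0.42 ± 0.13 (edgeR adjusted p = 0.0544). It passed in 8 of the other fits, among them the one without B35 replicate 1 (log2 −0.27, edgeR adjusted p = 0.0335). The dicarboxylate carrier SLC25A10, the oxoglutarate carrier SLC25A11 and the oxodicarboxylate carrier SLC25A21 lay between −0.10 and 0.16 on the log2 scale. The mitoferrins SLC25A28 and SLC25A37, which bring iron into the matrix, had log2 fold changes of −0.16 ± 0.15 and 0.12 ± 0.099, with −0.0080 for SLC25A28 without B35 replicate 1, and their FPKM ratio overlapped between groups (exact permutation p = 0.4, adjusted 0.4).

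The remaining tested carriers did not pass. Those related to the uncoupling proteins, SLC25A14, SLC25A27 and SLC25A30, lay at 0.039, 0.47 and −0.36. SLC25A30 was lower in every B35 library than in any control and passed without B35 replicate 2 (log2 −0.53, edgeR adjusted p = 0.0327). SLC25A46, which acts in outer membrane dynamics, lay at −0.061, and SLC25A34, SLC25A35, SLC25A43 and SLC25A53 between −0.53 and 0.43. Of the 8 carriers not tested, SLC25A2, SLC25A31, SLC25A47 and SLC25A48 had no count in any library. SLC25A52 had 1 count in all, and SLC25A18, SLC25A32 and SLC25A41 had 22, 21 and 7 counts over the 3 controls and 41, 16 and 15 over the B35 libraries. SLC25A32, the folate carrier, shares 80.8% of its exon positions with other genes, DCAF13 among them. The part of this overlap in its count was not tested.

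In the TOM complex, the pore subunit fell and the receptors did not pass. TOMM40, which forms the pore of the outer membrane (chromosome 19, 44890569 to 44903689), was at 129.5, 120.4 and 118.7 CPM in controls and at 59.7, 85.8 and 90.4 CPM with B35. It was 1.56-fold lower (log2 −0.64 ± 0.14, edgeR adjusted p = 0.0124). Without B35 replicate 1, its lowest library, the log2 fold change was −0.48 (edgeR adjusted p = 0.00196), and without control replicate 1 the call was lost (0.0561). TOMM40L, its paralogue, was at 11.7 ± 0.901 CPM in controls and 8.91 ± 1.28 CPM with B35 (edgeR adjusted p = 0.105), and passed with GC and length trends removed. The FPKM ratio of TOMM40 to TOMM40L was 9.60 ± 0.793 in controls and 7.99 ± 0.737 with B35 (SD, n = 3; exact permutation p = 0.1, adjusted 0.1125).

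The receptors read targeting signals at the outer membrane. TOMM20, the presequence receptor, was at 294.2, 298.5 and 318.2 CPM in controls and at 385.4, 340.1 and 289.2 CPM with B35 (log2 0.16 ± 0.11, edgeR adjusted p = 0.370). TOMM70, which receives carriers and other proteins with internal signals, had a log2 fold change of −0.059 ± 0.11. TOMM22, the central receptor, was at 46.6 ± 2.52 CPM in controls and 39.2 ± 1.94 CPM with B35 without overlap (edgeR adjusted p = 0.107). With GC and length trends removed TOMM22 passed. TOMM7, a small subunit, was the only import gene apart from TOMM20 with a fold change above 0. It was at 37.3, 60.5 and 51.7 CPM in controls and at 60.2, 77.5 and 73.5 CPM with B35 (log2 0.50 ± 0.16, edgeR adjusted p = 0.0620). B35 replicate 1 lay within the control range, and without it the gene passed (edgeR adjusted p = 0.0160). TOMM7 also passed without control replicate 2, with upper-quartile scaling and with no filter beyond 1 count. The same held with the replicate block and with GC and length trends removed.

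TOMM34, a cytosolic cochaperone of proteins bound for mitochondria (chromosome 20, 44942130 to 44960486), was at 81.0, 75.0 and 79.0 CPM in controls and at 61.5, 65.2 and 55.9 CPM with B35. It was 1.29-fold lower (log2 −0.36 ± 0.096, edgeR adjusted p = 0.0274), a call lost without any 1 control or B35 replicate 3 (0.0619 to 0.122). Some small TOM genes could hardly be read. TOMM6 had no count in any library, and all of its exon positions are shared with AL365205.1 or USP49. TOMM5 had 1.43 ± 0.413 CPM in controls and 0.930 ± 0.225 CPM with B35, and TOMM20L had 2 and 5 counts over the groups.

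In the TIM23 complex, 2 of 7 genes fell (28.6%), beside 6.59% of all genes tested. All 7 had fold changes below 0, apart from TIMM23B at 0.00073 without B35 replicate 1. TIMM17A, a subunit of the channel (chromosome 1, 201955491 to 201970661), was at 114.5, 105.8 and 106.4 CPM in controls and at 54.9, 82.4 and 88.0 CPM with B35. It was 1.45-fold lower (log2 −0.54 ± 0.15, edgeR adjusted p = 0.0375), and without B35 replicate 1 the log2 fold change was −0.36. Its call was lost without any 1 control (0.0749 to 0.124) and with the GC and length trends of each library removed (edgeR adjusted p = 0.0674). TIMM44, which tethers the import motor to the channel (chromosome 19, 7926718 to 7943920), was at 70.4, 72.6 and 67.1 CPM in controls and at 40.4, 54.6 and 52.6 CPM with B35. It was 1.42-fold lower (log2 −0.51 ± 0.12, edgeR adjusted p = 0.0172), a call lost without any 1 control (0.0586 to 0.0636).

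The other subunits of that complex missed the threshold. TIMM17B, the paralogue of TIMM17A, had a log2 fold change of −0.15 ± 0.13, and of −0.0031 without B35 replicate 1. The FPKM ratio of TIMM17A to TIMM17B was 0.706, 0.585 and 0.662 in controls and 0.463, 0.504 and 0.512 with B35 (exact permutation p = 0.1, adjusted 0.1125). TIMM50, the receptor of the complex, was at 114 ± 3.72 CPM in controls and 94.9 ± 12.1 CPM with B35 without overlap (edgeR adjusted p = 0.118). With GC and length trends removed TIMM50 passed. TIMM23, the channel protein, had a log2 fold change of −0.22 ± 0.12 and its near-identical copy TIMM23B one of −0.10 ± 0.15, and reads could be split between the 2 genes. TIMM21 lay at −0.15 ± 0.10.

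On the carrier import route, TIMM22 fell. This channel of the TIM22 complex (chromosome 17, 997117 to 1003671) was at 37.4, 43.5 and 36.0 CPM in controls and at 31.8, 29.9 and 28.8 CPM with B35, or 1.29-fold lower (log2 −0.37 ± 0.11, edgeR adjusted p = 0.0437). The call was lost in each fit with 1 library left out other than B35 replicate 1 (0.0921 to 0.172), with upper-quartile scaling and with DESeq2. TIMM29 and TIMM10B, further subunits, lay at −0.057 and −0.20. Without B35 replicate 1, TIMM29 lay at 0.16 and TIMM10B passed at −0.33 (edgeR adjusted p = 0.0440). None of the small TIM chaperones passed. TIMM9 and TIMM10, which form the main chaperone of carriers in the intermembrane space, had log2 fold changes of −0.0011 ± 0.11 and −0.26 ± 0.15, and TIMM8A, TIMM8B and TIMM13 lay between −0.40 and −0.22. Without B35 replicate 1, TIMM13 lay at −0.019. TIMM8B passed with no filter beyond 1 count, without B35 replicate 2 and with the replicate block. It shares 32.3% of its exon positions with SDHD and NKAPD1.

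Proteins that work with these translocases were taken from a list of 24 genes without TOMM or TIMM symbols, all tested, of which 6 fell and none rose (also none at an unadjusted p under 0.05 or by DESeq2). Of all genes tested, 6.59% fell. The median log2 fold change of the list was −0.16. HSPA9, the matrix HSP70 that drives the import motor, fell from 711 ± 32.0 to 538 ± 41.2 CPM (SD, n = 3), or 1.32-fold. Its nucleotide exchange factors GRPEL1 and GRPEL2 fell by 1.34-fold and 1.36-fold, and DNAJC15, a J protein of the motor, by 1.28-fold. HSPD1, the chaperonin that folds imported proteins, fell from 741 ± 52.3 to 519 ± 43.0 CPM, or 1.43-fold (edgeR adjusted p = 0.00603). Its exons overlap those of HSPE1. AGK, a lipid kinase that is also a subunit of the TIM22 complex, was 1.34-fold lower. Leaving out a control reduced the falls in this list to 1, 5 and 1 for replicates 1, 2 and 3, where 2.76%, 3.3% and 1.94% of all genes fell. Leaving out B35 replicate 2 or 3 reduced them to 3 or 2, where 4.76% and 4.21% of all genes fell. Without B35 replicate 1, 7 fell and 1 rose, where 10.1% of all genes fell and 12.1% rose. The call of HSPA9 was lost without control replicates 1 or 3, that of GRPEL1 without any 1 control or B35 replicate 3, and that of AGK in each fit with 1 library left out other than B35 replicate 1. Those of GRPEL2 (edgeR adjusted p up to 0.0893) and DNAJC15 (up to 0.188) were lost without control replicates 1 or 3 or B35 replicates 2 or 3, and that of DNAJC15 also with upper-quartile scaling. HSPD1 passed in each fit run.

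Of 20 tested transporters of the mitochondrial membranes outside these families, 1 rose (5%) and 3 fell (15%), beside 8.82% and 6.59% of all genes. UCP2, an uncoupling protein of the same carrier family under another symbol, rose from 52.3 ± 6.92 to 91.3 ± 5.25 CPM (SD, n = 3), or 1.74-fold (edgeR adjusted p = 0.00146). LETM1, a cation exchanger, was 1.52-fold lower, MTCH2, a carrier homologue of the outer membrane, 1.28-fold and the ABC transporter ABCB10 1.30-fold. The call of MTCH2 was lost without control replicates 1 or 3 or B35 replicate 3, and that of ABCB10 without control replicates 1 or 3 or B35 replicate 2.

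Of 13 regulators of mitochondrial biogenesis, 1 rose and none fell by edgeR or DESeq2, with 5 lower at an unadjusted edgeR p under 0.05. These 5 were PPARGC1B, TFAM, TFB2M, POLRMT and YY1. Their log2 fold changes were −0.69, −0.31, −0.30, −0.30 and −0.23 (edgeR adjusted p between 0.0577 and 0.105). The share of all genes lower at an unadjusted p under 0.05 was not counted, so these 5 cannot be set beside it. The median log2 fold change of the list was −0.19, and 9 of the 13 lay below 0. The 1 of 13 (7.69%) stands beside 8.82% of all genes that rose. MYC rose from 237 ± 3.30 to 304 ± 6.35 CPM, or 1.28-fold (edgeR adjusted p = 0.0136), a call lost without any 1 control. NRF1, GABPA and PPARGC1A, whose products act on genes of mitochondrial proteins and which were singled out after their values were seen, had log2 fold changes of 0.084, −0.10 and 0.14 and did not pass. Of 13 mitochondrial proteases and stress genes, 1 rose and 1 fell (7.69% each, beside 8.82% and 6.59% of all genes). HTRA2 rose by 1.54-fold in a gene that shares exons with AUP1 and LOXL3, and AFG3L2, a protease of the inner membrane, was 1.26-fold lower. The call of AFG3L2 was lost in each fit with 1 library left out other than B35 replicate 1 and with upper-quartile scaling. ATF4, the stress factor, had a log2 fold change of −0.12 (edgeR adjusted p = 0.426).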

How the data were processed

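RNA from A549 cells, 3 untreated libraries and 3 treated with 2 µM B35 for 72 h, was sequenced from NEBNext Ultra libraries of TRIzol RNA, per the labels' protocols. The authors deposited read counts per gene, with gene symbols that match GENCODE release 29, and the submitters' processing notes name HISAT2 2.0.5, featureCounts 1.5.0-p3 and the build hg38. The authors also deposited FPKM values, used here for levels between genes and for ratios. No source used here gives the strand setting. Library totals were 17141478 to 18530670 counts.

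Counts were tested with edgeR 4.0.16 (R 4.3.3; filterByExpr with a minimum count of 10 and total of 15, TMM scaling, quasi-likelihood test), with Benjamini-Hochberg adjustment over 14773 genes and a threshold of 0.05. The SE is the log2 fold change divided by the square root of F. Ratios were compared by exact permutation tests. Alternatives were upper-quartile or RLE scaling, a filter of 1 count only, each library left out, a replicate block, GC and length trends removed, DESeq2 1.42.0 and limma-voom (limma 3.58.1). The edgeR script was tested on simulated data. The rule named every called member, the ADP/ATP, phosphate, citrate and iron carriers, the main TOM and TIM subunits, both genes of each ratio, KDM1A and up to 4 called genes per direction of each other list. GRPEL2, DNAJC15, NRF1, GABPA, PPARGC1A, PPARGC1B, TFAM, TFB2M, POLRMT, YY1, ATF4 and the other members named were added after their values were seen. Of the carriers, 1 that did not pass the test is counted but not reported by name. The members and lists were chosen with earlier results of these data known.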

Additional observations from a re-analysis of the deposited data

How the results depend on the processing

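No called member changed sign under any alternative, and SLC25A13, SLC25A16, SLC25A17, SLC25A25, SLC25A33, SLC25A42 and SLC25A45 passed in every fit run. The count over all genes, 2276, was 3867 with GC and length trends removed and 881 to 3342 with 1 library left out, lowest without control replicate 3. With 1 library left out, carriers that rose numbered 2 to 4 and carriers that fell 5 to 11. Import genes that rose then numbered 0 to 1 and import genes that fell 0 to 6. Import partners that rose numbered 0 to 1 and import partners that fell 1 to 7. In these fits 3.87% to 12.1% of all genes rose and 1.94% to 10.1% fell. The carrier median exceeded the import median by 0.081 to 0.22 in the same fits. With GC and length trends removed the medians lay closer together, at −0.16 for carriers and −0.22 for import genes. Import genes that rose numbered 1, TOMM7, with upper-quartile scaling, with no filter beyond 1 count, with the replicate block and with GC and length trends removed. The same gene was the 1 that rose without control replicate 2 and without B35 replicate 1. The cause was not tested. Of the 63 tested members, 16 changed sign under at least 1 alternative, none of them called. The widest ranges were those of SLC25A34, −0.054 to 1.32, SLC25A21, −0.13 to 0.49, TIMM29, −0.21 to 0.16, and SLC25A10, −0.091 to 0.26. The log2 fold change of SLC25A12 was 0.026 with upper-quartile scaling, 0.032 with GC and length trends removed and −0.024 to 0.020 with 1 library left out (0.0062 without control replicate 2). That of TIMM9 was 0.028 with upper-quartile scaling, 0.081 with GC and length trends removed and −0.050 to 0.068 with 1 library left out (0.032 without control replicate 1). With 1 library left out, that of SLC25A36 was −0.20 to 0.0097 and that of TOMM70 −0.17 to 0.048. The labels do not state whether the replicate numbers pair the libraries. Deviations from the group means correlated at 0.16, 0.016 and −0.063 between same-numbered libraries, and control replicate 2 correlated best with B35 replicate 3 (0.25). With 3 libraries per group, such correlations cannot decide whether the libraries are paired. With the replicate block 2855 genes passed, among them all 16 called members and 5 more (SLC25A1, SLC25A24, SLC25A51, TIMM8B and TOMM7).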
